A study of Mus musculus with 6 samples.

Results

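The 10 genes described here encode the sarcomeric myosin chains that differ between kinds of skeletal muscle fibre. They comprise 6 heavy chains, Myh1, Myh2, Myh3, Myh4, Myh7 and Myh8, and 4 light chains, Myl1, Myl2, Myl3 and Mylpf. The genes were chosen by symbol, out of 18193 genes with a probe set of their own on the array, and every probe set annotated to them was taken. These came to 17 probe sets, of which 15 name 1 gene and 2 name Myh7 together with Myh6. RNA was taken from normal, untreated bone of adult male mice weighing 24 to 26 g, a strain that the methods call Black CD57. There were 3 sites with 2 arrays each, namely calvaria without its sutures, mandible with its teeth, and ulna without soft tissue and epiphyses. The pilot used 10 mice in 2 groups, and the sources used here leave unstated how many animals stand behind each array. The spread between the arrays of a site, on which every p-value rests, may therefore be technical only. No sample was dissected as muscle, so the values are those of muscle transcripts in bone preparations, and jaw or limb muscle itself was not sampled.

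Myosin is the motor of the sarcomere, in which a pair of heavy chains with their ATPase heads pulls on actin, and an essential and a regulatory light chain stiffen and tune each head. Adult limb fibres are classed by their heavy chain. Myh7 marks slow fibres, Myh2 (IIa) fast oxidative fibres, Myh1 (IIx) faster fibres and Myh4 (IIb) the fastest fibres of the mouse. Myh3 and Myh8 are the embryonic and perinatal chains, which limb muscle largely replaces after birth, whereas adult jaw muscle of some mammals is known to retain perinatal myosin. Myl1 and Mylpf are the essential and regulatory light chains of fast fibres, and Myl3 and Myl2 are their counterparts in slow fibres and cardiac ventricle.

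In the RefSeq gene table of the mouse assembly GRCm38.p6, Myh3, Myh2, Myh1, Myh4 and Myh8 lie in this order on chromosome 11 with 0 other protein-coding genes between neighbours, while Myh7 lies on chromosome 14. Promoter sequences were held by the RefSeq table for all 10 genes, and those of Myh2, Myh1, Myh4 and Myh8 are shown because these 4 tested neighbours gave different patterns across the sites. Each is the 250 bases before the annotated start on the plus strand of GRCm38.p6. Capitals mark the runs of letters that they share.
Myh2, chr11:67170777-67171026: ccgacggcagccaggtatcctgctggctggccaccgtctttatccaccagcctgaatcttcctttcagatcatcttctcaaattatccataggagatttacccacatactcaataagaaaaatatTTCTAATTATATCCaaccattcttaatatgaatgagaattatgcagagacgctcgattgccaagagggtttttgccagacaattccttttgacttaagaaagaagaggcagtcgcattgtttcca
Myh1, chr11:67199852-67200101: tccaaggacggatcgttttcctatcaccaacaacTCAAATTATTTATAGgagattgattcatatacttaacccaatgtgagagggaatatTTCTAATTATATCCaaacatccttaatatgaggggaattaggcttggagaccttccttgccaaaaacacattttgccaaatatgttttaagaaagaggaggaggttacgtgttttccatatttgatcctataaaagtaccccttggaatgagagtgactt
Myh4, chr11:67237562-67237811: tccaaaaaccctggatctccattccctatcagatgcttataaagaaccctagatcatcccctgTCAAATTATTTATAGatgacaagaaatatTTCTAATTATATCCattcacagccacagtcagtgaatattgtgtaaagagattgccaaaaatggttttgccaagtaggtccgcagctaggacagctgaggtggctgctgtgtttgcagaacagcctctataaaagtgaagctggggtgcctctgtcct
Myh8, chr11:67276874-67277123: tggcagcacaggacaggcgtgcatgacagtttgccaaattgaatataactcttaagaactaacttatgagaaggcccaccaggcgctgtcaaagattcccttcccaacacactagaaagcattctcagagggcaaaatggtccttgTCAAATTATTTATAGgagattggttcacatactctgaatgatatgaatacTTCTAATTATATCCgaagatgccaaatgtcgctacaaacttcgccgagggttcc

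The longest run common to all 4 promoters was TTCTAATTATATCC, 14 bases that begin 125 bases before the start of Myh2, 160 before Myh1, 158 before Myh4 and 54 before Myh8. Read on both strands, it stood in 4 of 32851 mouse promoter windows of this length (0.0122%), and these were the 4 from which it was taken. A second run, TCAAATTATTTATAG (15 bases), lay upstream of the first in Myh1, Myh4 and Myh8, and in 3 of all windows (0.00913%). The runs were picked because these promoters share them, so the counts describe them only. The TATA run TATAAA stood in the windows of Myh1, Myh4, Myh3, Myh8, Myl1 and Myl2 and in 12.4% of all windows. In Myh1, Myh4 and Myh8 a match of TATAAA lies within the second run, read on the opposite strand, and in Myh8 it is the only match. An E-box, CANNTG, stood in the windows of 8 of the 10 genes, all but Myh1 and Myh2, and in 66.2% of all windows. These letters were matched in the assembly and are no measurement of the samples.

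Signal is the MAS5 value of a probe set, an intensity on a linear scale. Log2 differences are of the signal divided by the median of its array, which was 30.6 to 33.6. Testing with limma took in the probe sets that exceeded this median on 2 or more of the 6 arrays. A gene counted as called where the adjusted p was under 0.05 and the difference 2-fold or more. In all 12326 genes were tested. Of the 10 myosin genes 8 were tested, each through its probe set with the highest mean, while Myh3 and Myl3 lay below the filter. Tooth genes set the mandible apart as its label says, and no marker read here distinguishes calvaria from ulna by its label. Summed over 6 enamel and dentine genes, among them Dspp, Ambn, Amelx and Enam, the signal was 41398 to 41828 on the mandible arrays and 34.5 to 80.0 on the other 4. The signal of 7 bone genes summed to 21329 to 22036 in calvaria, 23342 to 23484 in mandible and 5362 to 5510 in ulna, so bone RNA was lowest in ulna. Bone genes called higher in mandible than in ulna were 5 of 7, against 11.0% of all tested genes. They were led by Phex (log2 difference 3.12), Col1a1 (2.91), Ifitm5 (2.20) and Sp7 (1.84). The part of this shift in the comparisons with ulna was not tested. A list of 11 tested pan-muscle genes, expressed in all skeletal fibres (Acta1, Ckm, Des, Ttn, Neb, Actn2, Tcap, Ldb3, Unc45b, Smyd1 and Cmya5), summed to 24126 to 24286 in mandible, 27514 to 27822 in ulna and 3010 to 3153 in calvaria. Muscle RNA was thus present at all sites, and in whole bone fewer fibres and less RNA per fibre cannot be told apart.

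**Figure D1:**
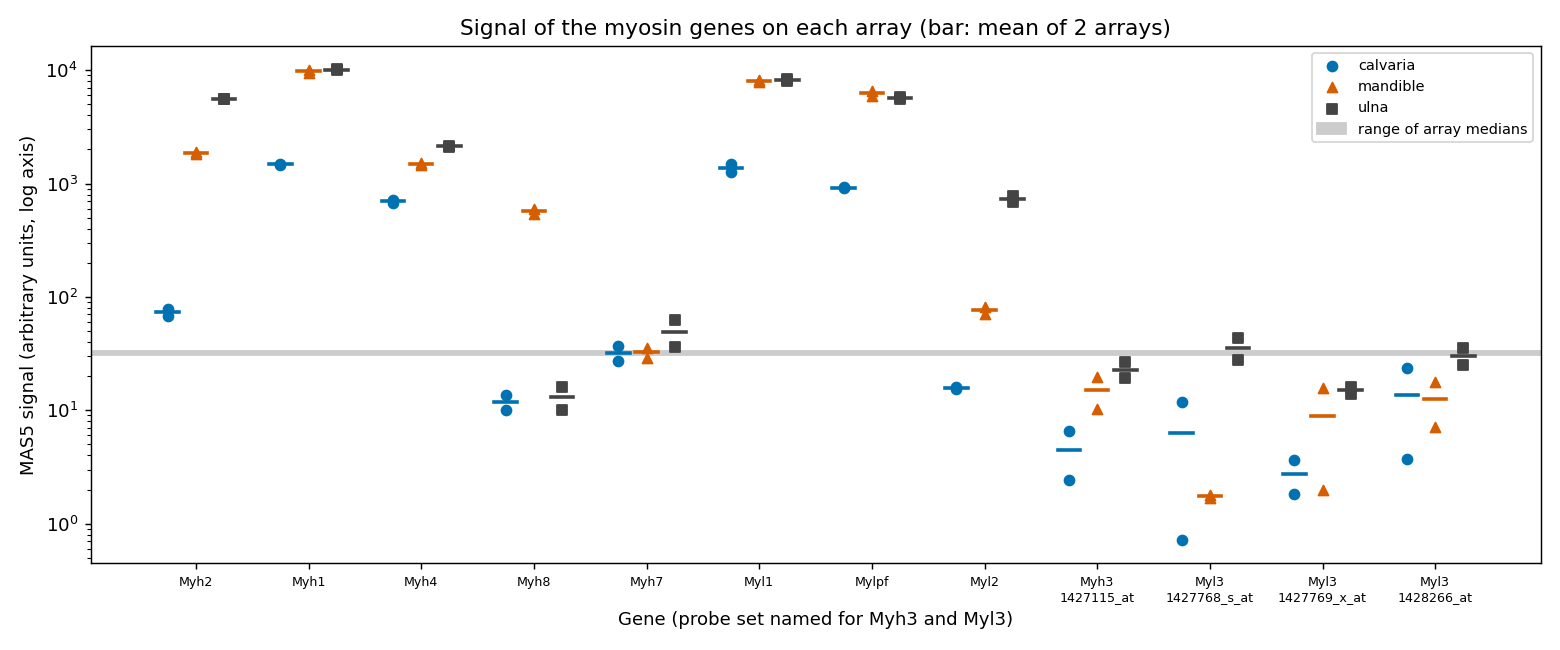
MAS5 signal (logarithmic axis) of the myosin genes on each array of calvaria (circles), mandible (triangles) and ulna (squares), with a bar at the mean of 2 arrays and a grey band over the array medians. Levels are to be read between sites for 1 gene and not between genes. Myh8 stands out on the mandible arrays (539 and 600), while the probe sets of Myh3 and Myl3 stay near or under the band.

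Mandible and ulna both carried much muscle RNA but differed in 3 of the myosin genes. The perinatal heavy chain Myh8 was at least 17.0-fold higher in mandible, whereas the IIa heavy chain Myh2 was 3.26-fold and the slow regulatory light chain Myl2 10.4-fold higher in ulna. The remaining tested genes differed by less than 2-fold or did not pass. Of the 8 tested myosin genes 1 was called higher in mandible, near the share of all tested genes (11.0%), and 2 were called lower, against 10.9%. The 1 called higher was Myh8, which passed the filter through the mandible arrays alone and so had to differ. The median log2 difference of the 8 was -0.40, and that of all tested genes was -0.08.

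The signal of Myh8 was 539 and 600 on the mandible arrays, 10.1 and 16.2 on the ulna arrays, and 13.5 and 10.1 on the calvaria arrays. Both mandible arrays lay above all others, and calvaria and ulna overlapped. Myh8 was higher in mandible than in ulna by 5.36 on the log2 scale (SE 0.34, limma adjusted p = 5.39e-07) and higher than in calvaria by 5.56 (adjusted p = 1.29e-06). It passed the filter through the mandible arrays alone and so had to differ, and it lay under the array median on the other 4. With those arrays set at their median, as the files hold no detection calls, Myh8 was at least 17.0-fold higher in mandible than at either other site, and the fitted sizes are not exact. Between calvaria and ulna it differed by -0.20 (95% interval -0.96 to 0.55, adjusted p = 0.698). The embryonic chain Myh3 did not share this pattern. Its signal was 19.8 and 10.2 in mandible, 19.2 and 26.6 in ulna and 6.53 and 2.41 in calvaria, all below the array medians and overlapping between mandible and ulna. The tooth genes, which were high in mandible alone, moved with Myh8, and their part in the result was not tested. Of 10 listed genes of muscle regulation, 5 were tested, namely Myod1, Myf6, Mef2c, Chrna1 and Ncam1. These gave 0 calls between mandible and ulna by limma, against 11.0% of all tested genes called higher and 10.9% lower. The list is too short for 0 calls to tell it from those shares. Under 2-fold but past the adjusted p were 2 of them, Ncam1 (log2 difference 0.72), a cell adhesion gene, and Mef2c (-0.53), a muscle transcription factor gene. Pax7, Myf5, Myog, Mymk and the fetal acetylcholine receptor subunit gene Chrng lay below the filter on signal and were not tested.

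The signal of Myh2 was 5600 and 5539 in ulna, 1815 and 1895 in mandible, and 68.4 and 77.7 in calvaria. The 3 sites did not overlap. Myh2 was lower in mandible than in ulna (log2 difference -1.70 with an SE of 0.08, adjusted p from limma 9.83e-08) and in calvaria than in ulna (-6.33, adjusted p = 1.81e-11), or 80.5-fold. Between the skull sites it was 24.7-fold higher in mandible (log2 4.63, adjusted p = 1.70e-10).

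The signal of Myl2 was 685 and 772 in ulna, 81.7 and 70.2 in mandible, and 15.4 and 16.1 in calvaria. The order of the sites was that of Myh2, again without overlap, and the calvaria values lay under the array median. Its log2 difference was -3.38 between mandible and ulna (SE 0.18, adjusted p = 1.80e-07), -5.61 between calvaria and ulna (adjusted p = 3.06e-09) and 2.23 between mandible and calvaria (adjusted p = 1.21e-05). With the calvaria arrays set at their median, Myl2 was at least 23.6-fold higher in ulna and at least 2.27-fold higher in mandible than in calvaria. The partners of Myl2 in slow fibres were hardly measured. Myh7 had a signal of 35.9 and 62.0 in ulna, 29.0 and 35.6 in mandible and 27.4 and 37.1 in calvaria, within or near the range of the array medians except on the second ulna array. Its log2 difference between mandible and ulna was -0.67 (95% interval -1.54 to 0.20, adjusted p = 0.198), which leaves room for a change of more than 2-fold. The 2 probe sets shared by Myh7 and Myh6 were read at 0.297 to 35.6 and stand for neither gene. Of the 3 probe sets of Myl3, the first gave 28.0 and 43.0 in ulna, 1.70 and 1.79 in mandible, and 11.9 and 0.722 in calvaria, and the others 13.9 to 35.2 in ulna and 1.84 to 23.7 elsewhere. Over the 18 values of Myl3, 2 lay above the median of their array, both on the second ulna array, and the gene was not tested. Blood-forming and fat cells were also more prominent in ulna. Summed over 7 erythroid genes, the signal was 9092 to 9402 in ulna and 3066 to 3188 in mandible, and over 3 adipocyte genes 5682 to 5936 and 1808 to 1823. All 7 erythroid and all 3 adipocyte genes were called lower in mandible, against 10.9% of all tested genes. The erythroid genes were led by Ermap (log2 difference -2.35), Rhag (-1.86), Epor (-1.75) and Gata1 (-1.68). The adipocyte genes were Retn (-3.21), Adipoq (-2.18) and Fabp4 (-1.68). The part of both cell types in the differences of Myh2 and Myl2 was not tested.

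The IIx heavy chain Myh1 and both fast light chains differed little between mandible and ulna. Myh1 had a signal of 9510 and 10099 in mandible, 10144 and 10115 in ulna and 1493 and 1455 in calvaria. The mandible and ulna arrays differed by -0.16 on the log2 scale (95% interval -0.29 to -0.04, limma adjusted p = 0.0393), past the adjusted p but under 2-fold. At its other tested probe set, whose arrays overlapped (7767 and 8584 in mandible, 8008 and 7191 in ulna), the difference was -0.01 (adjusted p = 0.914). The highest signal on an array ranged from 17235 to 19117, and whether the brightest probe sets were compressed was not tested. Myl1 was read at 8168 and 7810 in mandible, 8067 and 8399 in ulna, and 1266 and 1488 in calvaria, with a difference of -0.16 between mandible and ulna (95% interval -0.33 to 0.01, adjusted p = 0.115). Mylpf was read at 6586 and 5966 in mandible, 5783 and 5525 in ulna, and 915 and 926 in calvaria. Its difference was 0.03 (95% interval -0.11 to 0.17, adjusted p = 0.716), and its sign turned to -0.03 without mandible replicate 1. For these 3 genes a difference of 2-fold lay outside the interval.

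The IIb heavy chain Myh4 lay between these groups. Its signal was 1465 and 1504 in mandible, 2163 and 2116 in ulna and 714 and 679 in calvaria, without overlap between sites. It was 1.56-fold higher in ulna than in mandible (log2 difference -0.64, SE 0.07, limma adjusted p = 2.66e-05), past the adjusted p and under 2-fold. The second probe set of Myh4 was far dimmer (34.0 and 29.1 in mandible, 45.6 and 42.3 in ulna) and gave -0.60 (adjusted p = 0.263). The fast heavy chain genes are close copies, and the signal of a probe set may include transcripts of a neighbour. The probe set that stands for Myh1 carries the suffix x_at, which on these arrays marks probes shared with other sequences.

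**Figure D2:**
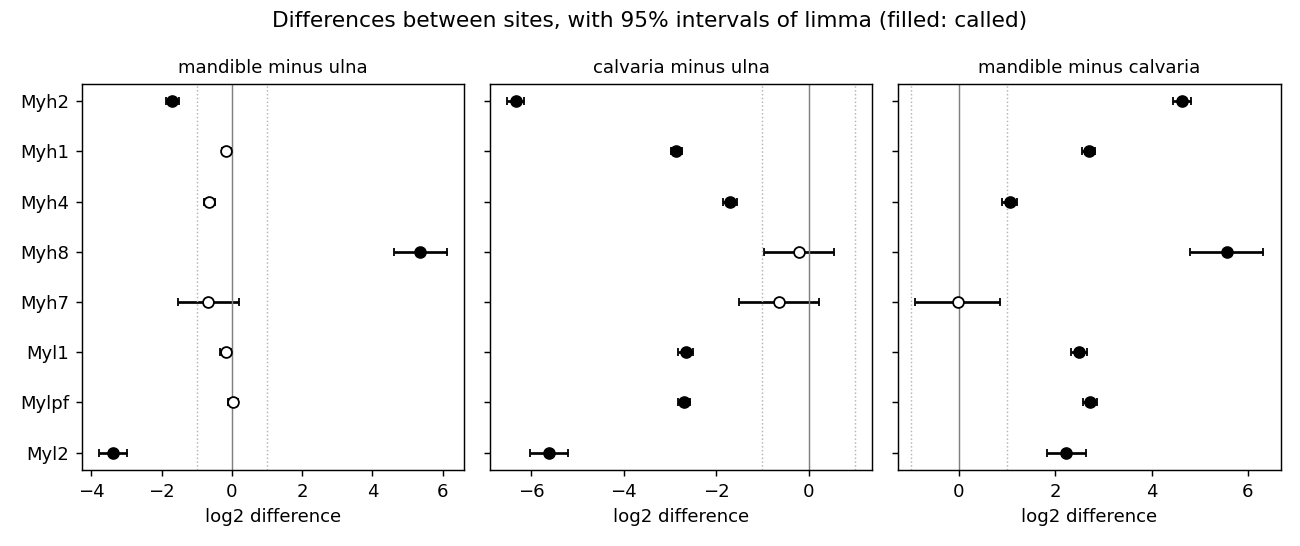
Log2 differences of the 8 tested myosin genes between sites (n = 2 arrays each), with 95% intervals from limma, filled points for genes called and dotted lines at 2-fold. Between mandible and ulna Myh8 is fitted at 5.36, or at least 4.09 with the ulna arrays set at their median, under which they lay. Myl2 lies at -3.38 and Myh2 at -1.70, while both other comparisons show most genes lower in calvaria.

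Calvaria held the least myosin signal, and the extent of the difference varied from gene to gene. Of the 8 tested genes 6 were called lower in calvaria than in ulna, against 4.54% of all tested genes, and 0 were called higher, against 8.36%. All 8 differences were below 0. The median log2 difference was -2.68, beside -0.05 over all tested genes. Relative to ulna, Myh2 was 80.5-fold and Myl2 at least 23.6-fold lower in calvaria. Myh1 was 7.25-fold lower, Mylpf 6.47-fold, Myl1 6.32-fold and Myh4 3.24-fold. The pan-muscle genes averaged 9.74-fold lower (11 of 11 called), with log2 differences from -4.43 to -2.05. Myh2 lay beyond this range, as did Myl2 even at its bound (4.56 higher in ulna), and Myh4, at -1.70, short of it. Myh7 was at -0.64 (adjusted p = 0.258), with overlapping arrays. Other cell types moved with this comparison. Between calvaria and ulna 6 of 7 bone genes were called higher, 3 of 3 adipocyte genes lower, and of 5 tendon genes 3 higher and 1 lower. Of 7 erythroid genes 2 were called lower, and all 7 were lower past the adjusted p. Their summed signal in calvaria was 2305 to 2323 for the adipocyte and 5669 to 5851 for the erythroid genes. Their part in the result was not tested.

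Between the skull sites 7 of 8 were called higher in mandible, against 5.14% of all tested genes, and 0 lower, against 4.01%. The 7 include Myh8, which passed the filter through the mandible arrays alone and so had to differ. The median was 2.60, beside -0.09 over all tested genes. Myh1 was 6.46-fold higher in mandible, Mylpf 6.62-fold, Myl1 5.66-fold and Myl2 at least 2.27-fold. Myh4 was 2.07-fold higher (log2 1.05, adjusted p = 2.33e-06), just past the limit, and at its dimmer probe set did not pass (0.74, adjusted p = 0.236). The pan-muscle genes averaged 7.17-fold higher. Myh7 was at -0.03 (95% interval -0.90 to 0.85), and turned positive on the values as deposited. The comparisons share arrays, so they are no independent evidence of each other.

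Other genes of fast and slow fibres were read for the same contrast. Between mandible and ulna none of 10 fast fibre genes was called in either direction (median log2 difference -0.19). Past the adjusted p but under 2-fold were 4 lower and 1 higher, among which the fast troponins Tnnt3 (-0.50) and Tnnc2 (-0.24) were lower and the fast myosin binding protein Mybpc2 (0.35) higher. Fast troponin I, Tnni2, was at -0.15 (adjusted p = 0.151). Of 8 tested slow fibre genes 4 were called lower in mandible, against 10.9% of all tested genes, and 0 higher, against 11.0% (median -1.14). These were the slow myosin binding protein Mybpc1 (-1.58, adjusted p = 2.44e-07), the Z-disc gene Myoz2 (-1.42, 1.96e-05), the LIM protein gene Fhl1 (-1.37, 9.62e-08) and the slow troponin Tnnt1 (-1.35, 0.00337). Mybpc1 was read at 987 and 971 in mandible, 2557 and 2862 in ulna and 122 and 113 in calvaria, an order shared with Myl2. Atp2a2, the slow calcium pump that many other cells also use, was higher in mandible by 0.85, under 2-fold. The tropomyosin gene Tpm3 was lower by a log2 difference of -0.76 (adjusted p = 9.98e-06), also under 2-fold. Tpm3, Fhl1 and Mef2c are likewise made outside muscle. Slow troponin I, Tnni1, lay below the filter. After the mean log2 value of the pan-muscle genes was subtracted on each array, Mybpc1 was at -1.14 between mandible and ulna. Myoz2 (-0.98), Fhl1 (-0.93) and Tnnt1 (-0.91) were then lower by less than 2-fold, as was Tpm3 (-0.32). Atp2a2 was then higher by 1.29, past 2-fold, while Tnnc1 (-0.50) and Casq2 (0.29) did not pass the adjusted p.

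Of 7 other myosin genes and myosin partners of striated muscle, 2 were called lower in mandible than in ulna, against 10.9% of all tested genes. Both are M-band genes. Myom3 was read at 73.4 and 57.8 in mandible and 199 and 195 in ulna (log2 difference -1.71, limma adjusted p = 0.000141), and Myom1 differed by -1.01 (adjusted p = 0.00175). None of the 7 was called higher, against 11.0%, and Mybpc3, the cardiac binding protein, was at 1.10 (adjusted p = 0.0893). With the mean of the pan-muscle genes subtracted on each array, Myom1 was at -0.57, under 2-fold, Myom3 at -1.27 and Mybpc3 at 1.54. Compared with calvaria, 4 of these 7 were called higher in mandible, against 5.14% of all tested genes.

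Non-muscle and smooth muscle myosins did not share the lower median of the sarcomeric genes in calvaria. None of 9 was called between calvaria and ulna, against 8.36% of all tested genes called higher and 4.54% lower. The median log2 difference was -0.03, with 2 higher and 1 lower past the adjusted p under 2-fold. Between mandible and ulna 1 of 9 was called higher, near the share of all tested genes (11.0%), and 0 lower, against 10.9%. This was Myh14, a non-muscle heavy chain also found in epithelia (log2 difference 1.17, limma adjusted p = 0.00443). Past the adjusted p were 3 higher, Myh14 and Myh10 (0.78) among them, and 2 lower, among them Myh9 (-0.55). The summed signal of the 9 was 9005 to 9375 in calvaria, 9473 to 9549 in mandible and 9518 to 9581 in ulna. Smooth muscle genes gave 0 calls of 4 between mandible and ulna, against 11.0% of all tested genes called higher and 10.9% lower. Past the adjusted p but under 2-fold, Tagln (0.66) and Acta2 (0.39) were higher in mandible and Des (-0.74), also a pan-muscle gene, was lower. Of 5 genes of tendon, the tissue that joins muscle to bone, 4 were called higher in mandible than in ulna, against 11.0% of all tested genes. These were Mkx, Tnmd, Fmod and Thbs4, while Comp (-0.63) was lower past the adjusted p under 2-fold. Of 3 nerve genes Pmp22 was called higher (1.67), against 11.0% of all tested genes, and S100b (0.26) and Sox10 (-0.19) did not pass.

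**Figure D3:**
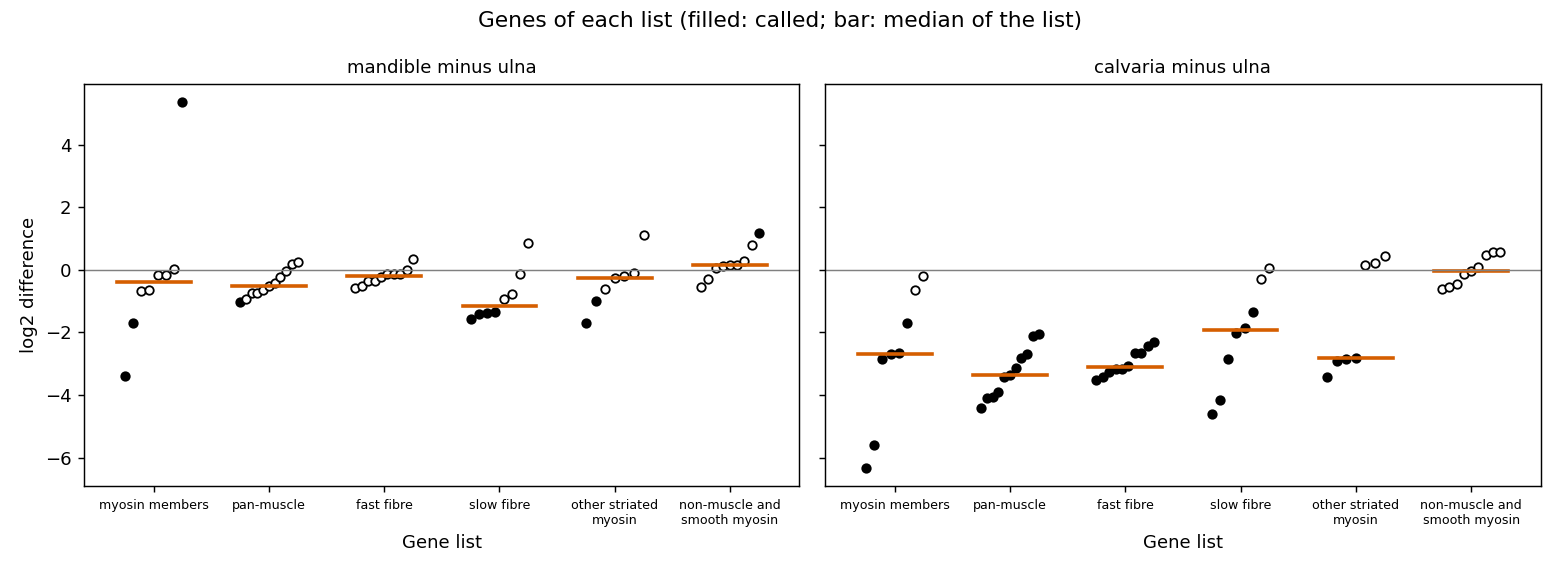
Log2 differences of single genes by list, mandible minus ulna and calvaria minus ulna (n = 2 arrays each), where points are filled for called genes and the orange bars give list medians. Between mandible and ulna the slow fibre median lies at -1.14 and the fast fibre median at -0.19, and in calvaria the non-muscle and smooth myosins stay near 0 (median -0.03).

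To set the myosins beside the muscle RNA of the same array, the mean log2 value of the 11 pan-muscle genes was subtracted on each array. That mean was 4.78 and 4.80 on the mandible arrays and 5.23 and 5.22 on the ulna arrays, a difference of -0.44, and it was 1.94 and 1.95 in calvaria. Single pan-muscle genes ranged from -1.02 (Tcap) to 0.24 (Ckm) between mandible and ulna. Myh8, Myh2 and Myl2 lay outside this range, and Myh1, Myh4, Myh7, Myl1 and Mylpf inside it. Relative to the pan-muscle mean, Myh8 was fitted at 5.80 higher in mandible (limma adjusted p = 2.53e-07), or at least 4.53 with the ulna arrays set at their median. Its call on this scale is no separate result, because it passed the filter through the mandible arrays alone. Myh2 was lower (-1.26, adjusted p = 5.48e-07), as was Myl2 (-2.94, adjusted p = 4.18e-07). On this scale 1 of 8 was called higher, against 19.8% of all tested genes, and 2 of 8 lower, against 4.32%. The other genes stayed under 2-fold. Mylpf (0.47, adjusted p = 0.000170), Myl1 (0.28, 0.0116) and Myh1 (0.28, 0.00255) were higher past the adjusted p, the last 2 of which turned to -0.0042 and -0.0084 when Acta1, Ckm and Ttn alone were the reference. Myh4 was at -0.20 (adjusted p = 0.0346) and Myh7 at -0.23 (adjusted p = 0.663).

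**Figure D4:**
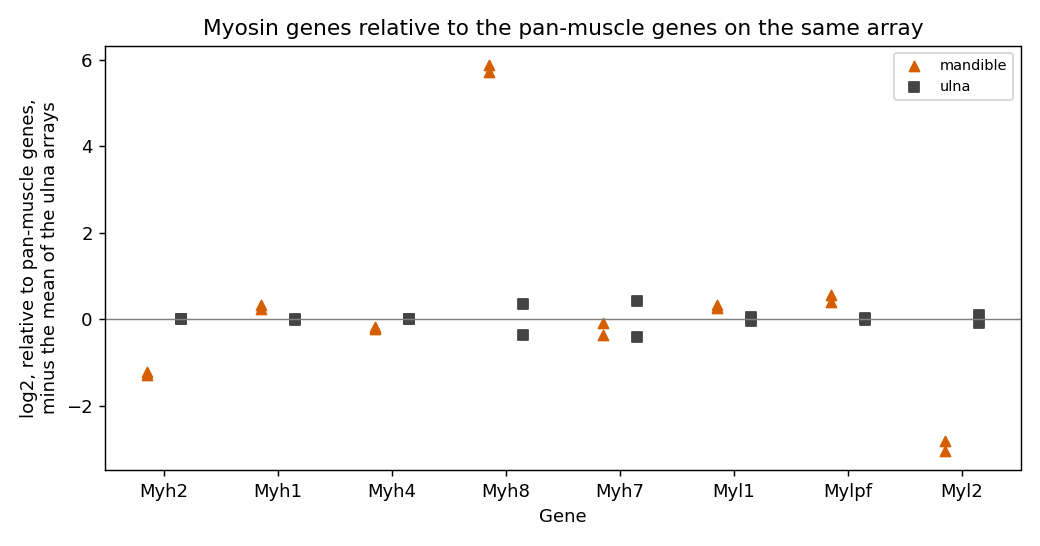
Log2 value of each tested myosin gene minus the mean of 11 pan-muscle genes on the same array, shown for mandible (triangles) and ulna (squares) with the mean of the ulna arrays set to 0. Myh8 is fitted 5.80 above ulna, or at least 4.53 with the ulna arrays set at their median, under which they lay. It passed the filter through the mandible arrays alone. Myl2 lies 2.94 and Myh2 1.26 below ulna, and among the other genes Mylpf lies highest at 0.47.

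The genes with the pattern most like each myosin were found by Euclidean distance over the 6 arrays, after each gene was centred on its mean log2 value. The other myosin genes described here were left out of this search. These distances describe the arrays, which fall into 3 sites. Nearest to Myh1 were Acta1, skeletal alpha actin (distance 0.14), the Z-disc gene Myoz1 (0.22) and the muscle enolase Eno3 (0.29). Nearest to Mylpf were Gm11716 (0.10), Myoz1 (0.16) and Acta1 (0.19), and nearest to Myl1 the fatty acid binding protein Fabp3 (0.10), the calcium buffer Pvalb (0.16) and Myoz1 (0.29). Nearest to Myh4 was Vgll2, a muscle transcription cofactor (0.11, with 51.1 and 47.0 in calvaria, 106 and 111 in mandible, and 165 and 158 in ulna), followed by the Wnt receptor Fzd4 (0.23) and the hexokinase Hk2 (0.24). Nearest to Myh7 were Gcn1 (0.31), Usp46 (0.32) and Sart3 (0.32), none of which is a sarcomeric gene. Myl2 had no close neighbour, with Csrp3, a muscle LIM protein, first at 1.20, then Synpo2l at 1.69 and Mybpc1 at 1.81. For Myh2 the nearest were Myoz3 (1.43), Perm1 (1.5) and Asb15 (1.72). In calvaria these 3 were read at 0.618 to 7.96, far under the array medians, so their distances are not exact. For Myh8 they were Car6 (0.35), a carbonic anhydrase secreted by salivary glands, Krt4 (0.90), a keratin of oral epithelium, and Serpinb12 (0.97). Car6 was read at 494 and 491 in mandible, 9.74 and 15.1 in ulna and 15.5 and 9.60 in calvaria. In calvaria and ulna Car6, Krt4 and Serpinb12 were read at 4.84 to 30.8, near or under the array medians, where Myh8 also lay. Their distances are therefore not exact, and they rest mostly on high signal in mandible alone. Among the genes searched, no sarcomeric gene was among the 3 nearest to Myh8.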

How the data were processed

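RNA from mouse calvaria, mandible and ulna, 2 arrays each, had been labelled in 1 cycle and hybridised to Affymetrix GeneChip arrays. The authors deposited MAS5 signal, an intensity on a linear scale, with 1 value for each of 45101 probe sets and a 2% trimmed mean of 100.0 on every array. No genome build is given in the sources used here. Gene names came from the platform annotation, and symbols were checked against the RefSeq table of GRCm38.p6 by gene identifier. This named 34945 by 1 gene and 932 by several, while 9160 had none. The 64 controls did not enter. Signals were divided by the array median and log2 taken. A mean for each site was fitted over 25233 probe sets with limma 3.58.1 in R 4.3.3 (trend, residual degrees of freedom 3, prior 7.67), and p-values were adjusted by Benjamini and Hochberg over all of them. Precision is limited by the number of arrays. The fit was checked on simulated data for mandible against ulna over 25233 probe sets, where the calls recovered 72% of 100 simulated 3-fold changes and 90% of 100 simulated 8-fold changes. No other probe set was changed there, and the noise was independent and normal. In the data 11.0% of genes were called higher and 10.9% lower between these sites, so the recovery need not hold for them. Within a site, the typical (median) standard deviation of a probe set was 0.194 in log2 units.

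The members, the gene lists and the tests were chosen with earlier results of these data known. Named were all 10 members, up to 4 called genes of each list (or the 2 highest where none was called), and the 3 nearest patterns of each tested member, with further list genes named after their values were seen. Lists not described above were checked as marker lists, with bone, tooth, erythroid, adipocyte, tendon, nerve and smooth muscle given by summed signal or calls. Alternatives covered scaling, filter, offset, variance model, arrays used, threshold and probe set. Same-numbered arrays did not deviate together (correlations of deviations 0.0058, -0.012 and -0.0048), so the numbers were not treated as pairs. Plots were drawn with matplotlib 3.10.9.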

Additional observations from a re-analysis of the deposited data

How the results depend on the processing

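The calls of myosin genes were recomputed under 18 alternatives, among them leaving out each of the 6 arrays in turn, where the lone array left at a site was assumed to vary like the others. Between calvaria and ulna 6 genes were lower and 0 higher under every alternative, and between mandible and ulna 1 was higher. That gene was Myh8, which passed the main filter through the mandible arrays alone. Between mandible and ulna 2 were lower, except that 4 were lower by the adjusted p alone, which drops the 2-fold limit and adds Myh1 and Myh4. Between mandible and calvaria 7 were higher, or 6 with the probe set of lowest mean, where Myh4 was lost. Myh8 is counted among these as well. The replicate block, a fit with the array number as a term, left these counts at 6, 1, 2 and 7 and changed no call. Relative to the pan-muscle genes 3 were called under each of the 9 alternatives run. Leaving out single arrays gave log2 differences between mandible and ulna of 5.01 to 5.71 for Myh8, -1.74 to -1.66 for Myh2 and -3.48 to -3.28 for Myl2. Signs turned only for differences that were not called. Leaving out arrays gave -0.56 to 0.15 for Myh8 between calvaria and ulna (above 0 without calvaria replicate 2 or ulna replicate 2), -0.030 to 0.095 for Mylpf between mandible and ulna, -0.25 to 0.19 for Myh7 between mandible and calvaria, and -0.64 to 0.18 for Myh7 relative to the pan-muscle genes. Myh7 between mandible and calvaria was 0.012 on the values as deposited and 0.018 with scaling to the 75th percentile. With Acta1, Ckm and Ttn as the reference, Myh1 was at -0.0084 and Myl1 at -0.0042 between mandible and ulna. The cause of these turns was not tested. Signal near or under the array median limits what can be said of Myh3, Myh7 and Myl3. Without a filter on signal, 1 probe set of Myl3 passed between mandible and ulna by limma (-4.43, adjusted p = 0.0354), and its other 2 did not (adjusted p = 0.314 and 0.452).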
